A study of Rattus norvegicus with 18 samples.

Results

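Klk1, a gene of the tissue kallikrein family, is 1 of 5147 genes named in the annotation of these arrays, and 2 of the 8799 probe sets on the array were annotated to it. These were M19647_i_at and M19647_f_at, both designed on the same source sequence, and both were followed on all 18 arrays. Neither was annotated to a second gene. Klk1 was selected on its signals 1 week after fracture against no fracture in these same arrays, so its time course against no fracture is given as a description with no test. Only the differences between ages, which the choice did not use, were tested.

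Tissue kallikreins are serine proteases that release kinins from kininogens, and the kinins act on the B1 and B2 receptors to dilate vessels, raise vascular permeability and produce pain. The enzyme is best known from kidney, pancreas and salivary gland. In the rat, Klk1 belongs to a cluster of closely related glandular kallikrein genes on chromosome 1, whose transcripts are similar enough that a probe set can detect more than 1 of them.

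The arrays measured RNA from the femur of female Sprague-Dawley rats that were young (6 weeks old at fracture), adult (26 weeks) or older (52 weeks). Each age had an array for each of 5 times between 3 days and 6 weeks after the break, and an array of rats with no fracture, which the study's methods describe as sham controls killed at time zero. Every array held RNA pooled from 2 rats, and there was 1 array for each age at each time, so the 3 ages served as the replicates of a time and the 5 times after fracture as the replicates of an age. Fractures were closed, transverse and at mid-shaft, the bone was held by a rod in the marrow cavity, and the piece collected contained callus, cortical bone and marrow. In such a mixed sample, fewer cells of a type and less RNA per cell cannot be told apart.

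The name of the gene needs care. In the RefSeq gene table, the gene now called Klk1 also carries the older names Klk1c7, RGK-7 and RSKG-7. Its relative Klk1b3 carries Klk1, Klk1c1, rGK-1 and rK-1 among its own older names, and Klk1c12 carries Klk1 as well. The probe set annotated to Klk1b3, J00758_s_at, lay between 8.2 and 71.1 signal units on all 18 arrays. The values here therefore belong to the gene that the array annotation calls Klk1. Which of these genes is the tissue kallikrein known from kidney and salivary gland was not settled here.

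Sequences before the annotated starts show how alike the members of the cluster are. Klk1, Klk1c3, Klk1c12 and Klk1b3 are shown because the array has a probe set named for each, some of which moved with Klk1 and some of which did not. Each line is the strand of the gene from 5′ to 3′ (RefSeq, GRCr8), with the Klk1 stretch of 100 bases that ends at the base before its start, and capitals mark bases of a relative that differ from, or are absent in, the aligned Klk1 stretch. A Klk1 base absent from a relative is not marked. The stretches of the relatives do not end at their own starts. They lie 178 to 79 bases before the start in Klk1c3, 179 to 79 in Klk1c12 and 134 to 36 in Klk1b3.
Klk1, chr1:103779052-103779151, plus strand: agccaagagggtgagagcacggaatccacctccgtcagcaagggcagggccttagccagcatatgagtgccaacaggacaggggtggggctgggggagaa
Klk1c3, chr1:103807972-103808071, plus strand: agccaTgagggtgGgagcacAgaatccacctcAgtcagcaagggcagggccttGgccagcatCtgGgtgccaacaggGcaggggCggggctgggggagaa
Klk1c12, chr1:103518755-103518855, minus strand: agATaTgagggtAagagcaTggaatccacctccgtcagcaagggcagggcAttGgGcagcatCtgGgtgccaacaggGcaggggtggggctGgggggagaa
Klk1b3, chr1:103845513-103845611, plus strand: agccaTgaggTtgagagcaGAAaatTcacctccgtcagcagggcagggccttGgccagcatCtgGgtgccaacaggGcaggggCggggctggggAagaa

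Over the stretch that could be aligned, Klk1c3 shared 91.18% of 170 bases with Klk1 and Klk1b3 shared 87.5%. Among the 8 Klk1b and Klk1c genes with a sequence, the identity ran between 84.0% and 92.68% over 163 to 215 aligned bases. The 12 other kallikrein genes aligned with Klk1 over at most 31 bases. The resemblance is between sequences before the start and says nothing about which transcripts a probe set detected.

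Klk1 was highest 1 week after fracture at all 3 ages and in both probe sets. In young rats the signals of M19647_i_at were 282.5 with no fracture, 911.8 at 3 days, 2431.5 at 1 week, 291.6 at 2 weeks, 228.1 at 4 weeks and 147.1 at 6 weeks. In adult rats they were 71.6, 425.9, 7561.5, 4630.7, 540.2 and 320.5 at the same times. In older rats they were 57.9, 237.9, 5876.8, 2631.9, 283.9 and 128.3. The 1-week arrays lay above all other arrays of their own age, and at 2 weeks the young array had returned close to its level with no fracture while the adult and older arrays had not.

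M19647_f_at, whose name marks it as recognising several members of a gene family, was also highest at 1 week at each age, with lower signals there. In young rats it read 230.3 with no fracture, 430.1 at 3 days, 870.9 at 1 week, 233.9 at 2 weeks, 287.8 at 4 weeks and 212.6 at 6 weeks. In adult rats it read 237.8, 314.3, 2488.1, 1586.7, 393.7 and 320.2, and in older rats 76.8, 204.0, 2583.0, 1021.2, 246.2 and 215.6. The 2 probe sets had a Pearson correlation of 0.97 over the 18 arrays on the log2 scale, and of 0.91 after each time's mean was removed. M19647_f_at was above M19647_i_at on 5 of the 18 arrays, all with signals of M19647_i_at below 300. Both read the same RNA and come from 1 source sequence, so this is no independent evidence.

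**Figure D1:**
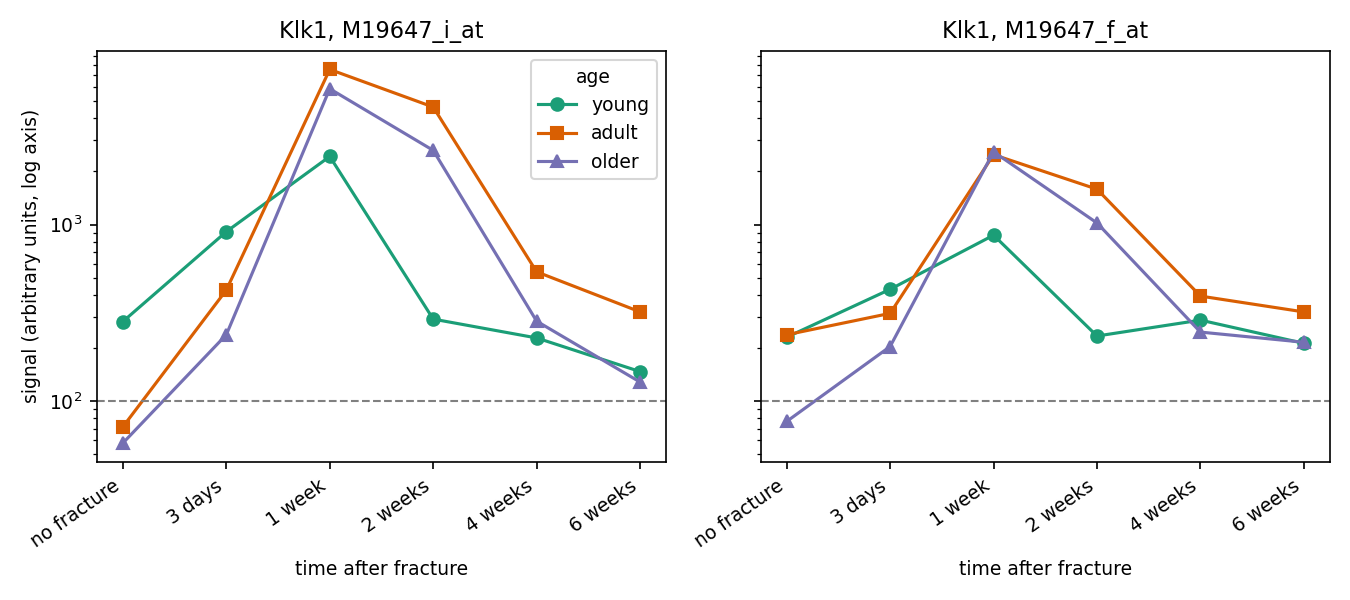
Signal of the 2 Klk1 probe sets (log axis, arbitrary units) against time after fracture, with a line for each age and 1 array per point; the dashed line is the floor of 100. All 6 lines peak at 1 week, where the young arrays are at 2431.5 and 870.9 and the other ages lie higher.

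Signals below 100 were set to 100 before logarithms were taken. On that scale M19647_i_at was 1.68 ± 0.76 higher at 3 days than with no fracture (log2, SE from the fit across all probe sets, n = 3 arrays each), and 5.07 ± 0.76 higher at 1 week. The excess was 3.43 ± 0.76 at 2 weeks, 1.21 ± 0.76 at 4 weeks and 0.37 ± 0.76 at 6 weeks. The 1-week difference equals at least 33.7-fold, since the adult and older arrays with no fracture lay below the floor. For M19647_f_at the differences were 0.78, 3.33, 2.04, 0.78 and 0.47, each ± 0.52. Only the 6-week difference of M19647_i_at turned round when an array was left out, to -0.26 without the adult array with no fracture. The 3-day difference of the same probe set ran between 0.85 without the young 3-day array and 2.49 without the young array with no fracture.

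The ratio of the 1-week to the 2-week signal of M19647_i_at was 8.34 in young rats, 1.63 in adult rats and 2.23 in older rats. The 2-week signal was 11.99% of the 1-week signal in young rats, 61.2% in adult rats and 44.8% in older rats. M19647_f_at gave 26.9%, 63.8% and 39.5%. The young rats therefore had the smallest share of their peak left at 2 weeks in both probe sets.

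As a setting for these patterns, 36 of the 4669 probe sets tested (0.771%) were highest at 1 week at all 3 ages, and 29.6% were higher at 1 week than with no fracture at all 3 ages. The young array was the lowest of the 3 at 1 week in 32.8%, at 2 weeks in 29.3% and at both times in 11.5%. Both Klk1 probe sets had every one of these patterns. Since Klk1 was chosen on its 1-week signals against no fracture, its rise and peak at 1 week follow in large part from that choice. The 2 probe sets are also not independent.

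Older and young rats did not differ in Klk1 past the test's threshold over the 5 times after fracture. Klk1 in older rats was 0.53 ± 0.53 above young rats for M19647_i_at (log2, SE, n = 5 arrays each, adjusted p = 0.610 by limma with Benjamini-Hochberg adjustment), and 0.48 ± 0.38 above for M19647_f_at (adjusted p = 0.492). Both were higher in older rats at 3 of 5 times. Of all probe sets tested, 0.15% were called in this comparison. Without the young 2-week array the M19647_i_at difference was -0.13, with an adjusted p of 0.885 by limma.

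Older rats had lower Klk1 signals than adult rats at all 5 times in M19647_i_at, with a mean difference of -0.85 ± 0.53 (log2, SE, n = 5 arrays each, limma adjusted p = 0.327). In M19647_f_at the difference was -0.49 ± 0.38 (limma adjusted p = 0.438), and older rats were higher at 1 of 5 times. The background for this comparison was 3.73% of probe sets called. When only the arrays of these 2 ages were fitted, the M19647_i_at difference kept its size at -0.85 with an SE of 0.15 and a limma adjusted p of 0.0448.

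Adult rats were above young rats by 1.38 ± 0.53 in M19647_i_at (log2, SE, n = 5 arrays each, limma adjusted p = 0.299) and by 0.97 ± 0.38 in M19647_f_at (limma adjusted p = 0.301), at 4 of 5 times in both. No probe set of the 4669 was called in this comparison by limma (0%), although 618 had an unadjusted p below 0.05. The exception among the times was 3 days, when adult rats had 425.9 and young rats 911.8 in M19647_i_at. At 2 weeks adult rats had 4630.7 against 291.6 in young rats, a ratio of 15.9, and without the young 2-week array the mean difference was 0.72. That was the lowest value when 1 array was left out, and the highest was 2.00. The limma adjusted p of these runs lay between 0.052 and 0.5875.

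**Figure D2:**
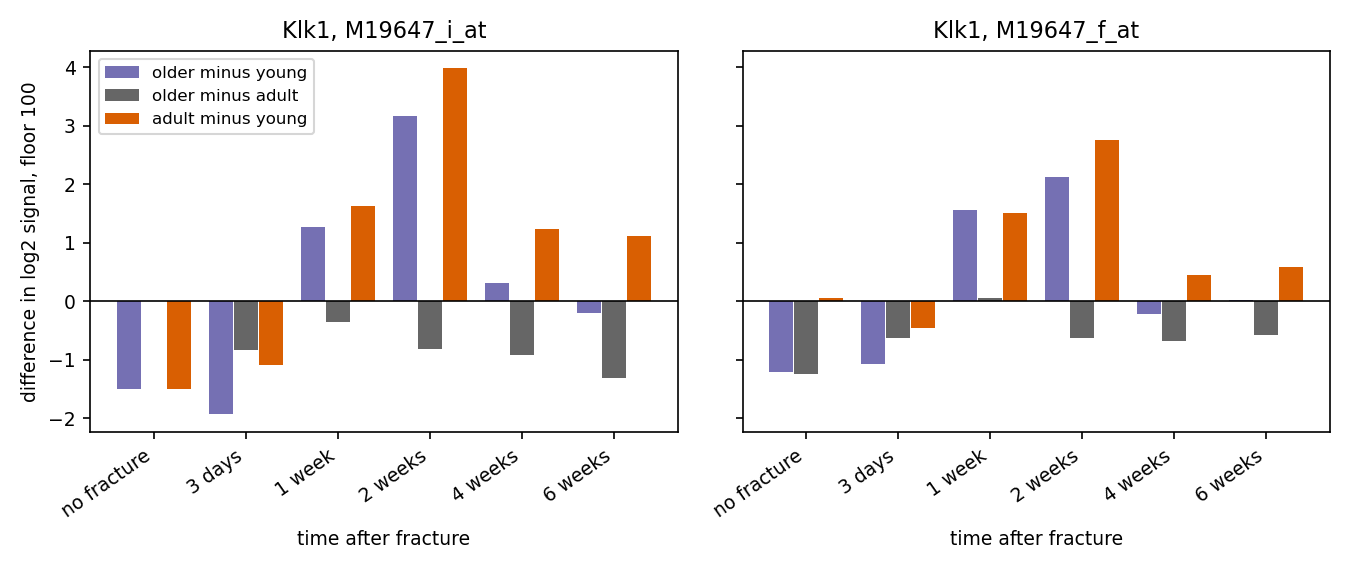
Difference in log2 signal (floor 100) between ages at each time for the 2 Klk1 probe sets, each bar from 1 array against 1 array; the arrays with no fracture were not part of the tests. The bars against young rats are below 0 at 3 days and highest at 2 weeks, where M19647_i_at is 3.17 for older minus young and 3.99 for adult minus young.

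The difference between older and young rats was itself compared between late and early healing. In M19647_i_at it averaged 0.06 at 4 and 6 weeks and 2.22 at 1 and 2 weeks, so that late minus early was -2.16 ± 0.64 (log2, SE, limma adjusted p = 0.376). In M19647_f_at the late value was -0.10 and the early value 1.85, giving -1.95 ± 0.43 (limma adjusted p = 0.226). No probe set was called by limma in this comparison (0%), which had 4 residual degrees of freedom and 339 probe sets with an unadjusted p below 0.05. When 1 array was left out, the M19647_i_at value ran from -3.23, without the young 1-week array, to -1.10. Without the young 1-week array, young rats have 1 array in the early period.

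The array holds 11 probe sets of 9 other kallikrein genes, and they are given by probe set type. All 4 family-type probe sets, named for Klk1c9, Klk1c12 and Klk1c3, were higher at 1 week than with no fracture at all 3 ages and lowest in the young at 1 and at 2 weeks. Of the 7 others, 1 was higher at 1 week at all 3 ages, that of Klk6, between 46.9 and 135.8 on all arrays. The young array was the lowest at 1 week in 1 of these 7 and at 2 weeks in 6 of them. These counts were read after the values were seen and were not tested. Of all probe sets tested, 29.6% were higher at 1 week at all 3 ages. The young array was lowest in 32.8% at 1 week and 29.3% at 2 weeks. Only 1 of the 4 family-type probe sets, that of Klk1c3, passed the filter on low values, and none of the 7 others did. In young rats both Klk1c12 probe sets were below 100 with no fracture and at 1 week, and that of Klk1c9 read 117.0 and 132.5.

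The brightest of them was the family-type probe set of Klk1c3, M26534_f_at. It read 237.8, 519.2 and 474.7 at 1 week in young, adult and older rats, against 101.3, 66.6 and 109.6 with no fracture. At 2 weeks it read 86.3, 517.7 and 300.0, so the young array was again the low one. The other probe set of the same gene, M26534_i_at, lay between 0.9 and 32.4 on all arrays.

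**Figure D3:**
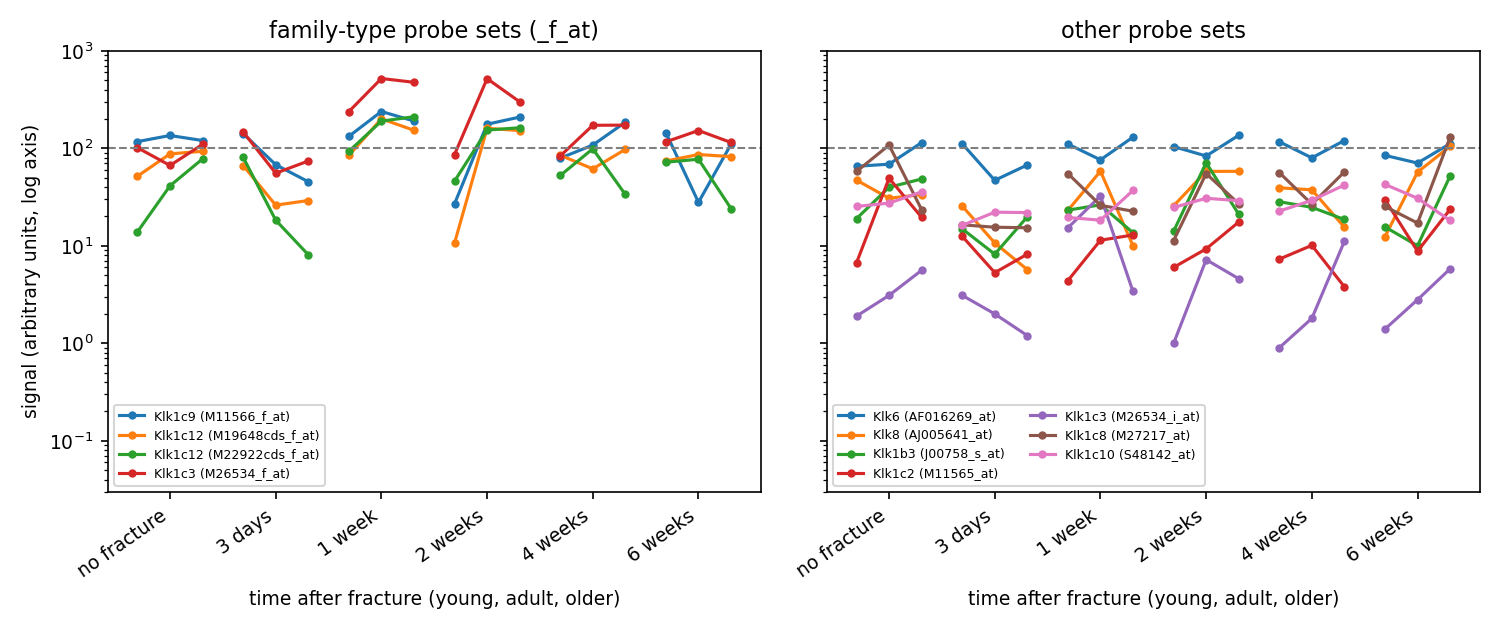
Signal (log axis, arbitrary units) of the 11 probe sets of other kallikrein genes, with young, adult and older arrays joined at each time; the dashed line is the floor of 100. The 4 family-type probe sets reach up to 519.2 at 1 and 2 weeks, and the 7 others stay between 0.9 and 135.8.

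How much of the family-type signal came from Klk1 transcripts was not tested, because the probe sequences were not used here. Epithelial markers of kidney and salivary gland, tissues best known for tissue kallikrein, were low. Of 7 such genes 5 were measured, and their summed signal lay between 322.9 and 700.8. At 1 week the sums of the 5 were 540.5, 629.5 and 508.8 in young, adult and older rats, against 449.5, 549.8 and 610.5 with no fracture. Neither of the 2 genes that passed the filter on low values was called at any time. Of all probe sets tested, 49.8% were called at 1 or more times, so 2 genes say little.

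The genes whose pattern was most like that of M19647_i_at were found among 2884 genes by Pearson correlation over the 18 arrays. The first was Cdh22, a cadherin of cell adhesion, at 0.92. Next came Myh3, the embryonic myosin heavy chain of developing and regenerating muscle (0.90), Ddr2, a collagen receptor (0.88), and Igf2, a growth factor of fetal tissue (0.87). Cnn1, Myl4, Tnnt2, Wdfy1, Actc1 and Zeb1 followed at 0.86 to 0.82. Cnn1, Myl4, Tnnt2 and Actc1 encode parts of the contractile apparatus, the last 3 of them known from heart and from immature skeletal muscle. The arrays share 6 times and 3 ages, so the correlations describe likeness only.

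Myh3 read 11960.2, 18600.1 and 17444.8 at 1 week in young, adult and older rats, against 5727.3, 4779.9 and 1820.5 with no fracture. At 2 weeks it read 6204.0, 16583.6 and 14421.5. As with Klk1, the young array was the lowest at both times and had returned near its own level with no fracture by 2 weeks. Cdh22 read 629.3, 2193.5 and 2501.4 at 2 weeks, with the same array low. After each time's mean was removed, the correlation with Klk1 was 0.82 for Cdh22 and 0.81 for Myh3. Both genes were picked for their likeness to Klk1 on these same arrays, so these values are no separate evidence.

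The genes most opposite were Dut, which keeps uracil out of DNA (-0.87), Cdc25b, a phosphatase of the cell cycle (-0.85), Spr, an enzyme of tetrahydrobiopterin synthesis (-0.84), Cd55, a complement regulator (-0.83), and Slc16a1, a lactate carrier (-0.82). Dut read 501.0, 505.2 and 535.5 at 1 week in young, adult and older rats, against 2830.8, 2003.3 and 4860.6 with no fracture. At 2 weeks it read 1769.8 in young rats and 417.4 and 556.3 in adult and older rats, so the same array stood apart. Dut too was picked by its correlation on these arrays.

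**Figure D4:**
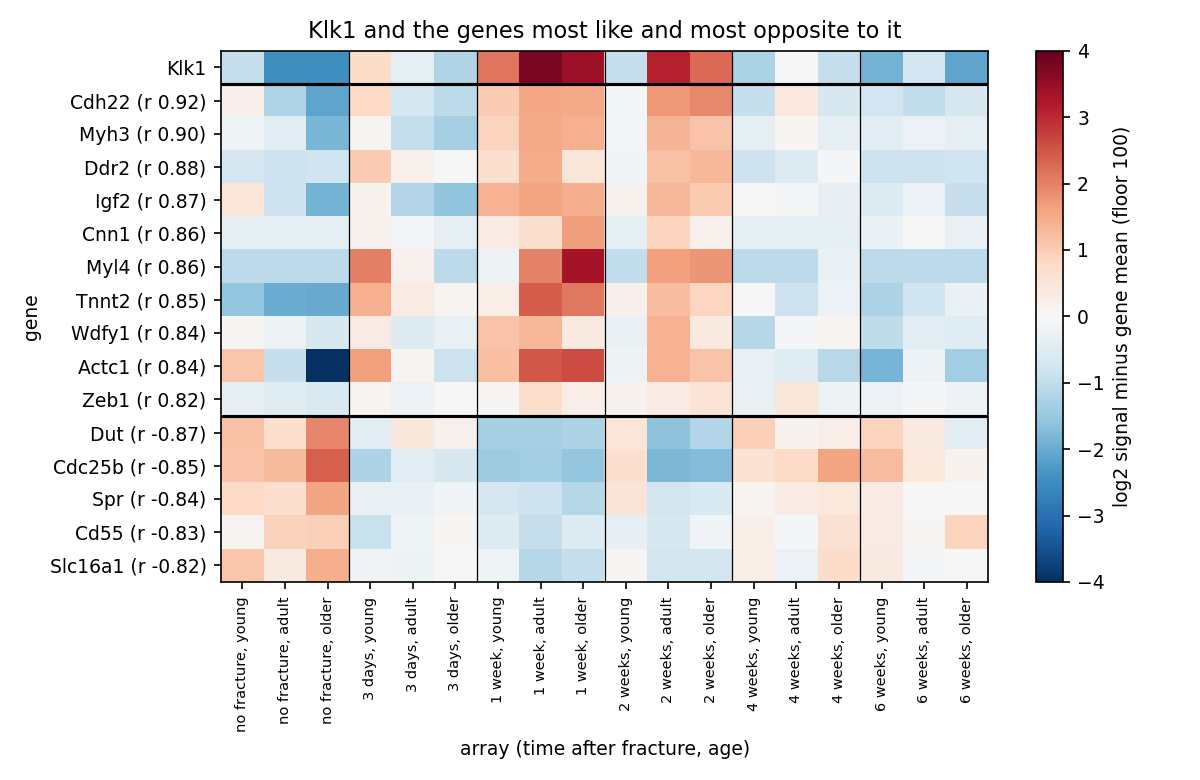
Log2 signal (floor 100) minus each gene's mean over the 18 arrays, for Klk1 (M19647_i_at), the 10 genes most like it and the 5 most opposite; r is Pearson's. Cdh22 at 0.92 and Myh3 at 0.90 are high where Klk1 is high, at 1 week and in adult and older rats at 2 weeks, and Dut at -0.87 is low there.

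Markers of regenerating muscle, a list of 7 genes that were all measured and all passed the filter, were followed beside Klk1. Their summed signal at 1 week was 14933.0, 24925.8 and 23602.9 in young, adult and older rats, against 7589.5, 6908.0 and 2898.9 with no fracture, and at 2 weeks it was 7819.2, 19364.5 and 17090.1. Much of each sum was Myh3, as its own values above show. Myh3, Chrna1, Chrnd and Ncam1 rose at 1 week (limma, adjusted over all probe sets), where 14.3% of all probe sets were called up, and Myh3 and Ncam1 at 2 weeks, where 12.8% were. The median difference of the 7 was 1.84 at 1 week and 0.31 at 2 weeks. Myog, a transcription factor of muscle differentiation, read 83.2, 472.9 and 336.2 at 2 weeks in young, adult and older rats, against 404.1, 389.5 and 28.0 with no fracture, so the list was not uniform. The part of such tissue in the Klk1 signal was not tested.

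Fibroblast markers were high on the same arrays, and already at 3 days. The 5 of them summed to 43194.3, 67893.7 and 55182.8 at 1 week in young, adult and older rats and to 41092.0, 53282.8 and 55336.5 at 2 weeks, against 25696.5, 11738.7 and 7065.7 with no fracture. The young array was the lowest at both times. All 5 genes rose at 1 week and at 2 weeks (limma), where 14.3% and 12.8% of all probe sets were called up. At 3 days and at 4 weeks 4 of them rose, where 24.5% and 5.05% of all probe sets were called up. The sums at 3 days were 52908.8, 41589.5 and 41940.6 in young, adult and older rats. Unlike Klk1, the young fibroblast sum was thus higher at 3 days than at 1 week, and at 2 weeks it was near that at 1 week. The part of these cells in the Klk1 signal was not tested.

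The 7 measured cartilage markers summed to 10527.9, 11960.0 and 18581.8 at 1 week in young, adult and older rats, against 2252.2, 433.8 and 352.2 with no fracture. At 2 weeks they summed to 24768.3, 17286.5 and 23622.1. The young cartilage sum was thus the lowest of the ages at 1 week, as for Klk1, and the highest at 2 weeks. The 8 measured markers of mature skeletal muscle summed to 146668.7, 128624.9 and 62888.5 at 1 week, against 165259.8, 191901.4 and 94431.5 with no fracture. None of them was called at 1 week, where 14.3% of all probe sets were called up and 10.5% down. At 3 days their sums were 65605.0, 42613.3 and 64682.8. All 8 were called down then (limma), where 19.7% of all probe sets were.

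Whether the gene called Klk1 here is the tissue kallikrein that releases kinins was not settled, as said above. The genes that act with tissue kallikrein were taken from a list of 44, of which 30 were measured and 19 passed the filter. Of these, 9 were called at 1 or more times, where 49.8% of all probe sets were, so the share was near the background. At 3 days 6 rose and 1 fell, where 24.5% of all probe sets were called up and 19.7% down. At 1 week 6 rose and 1 fell (background 14.3% up and 10.5% down), and at 2 weeks 4 rose and 1 fell (12.8% and 8.27%). At 4 weeks 2 rose and none fell (5.05% and 1.43%), and at 6 weeks 1 rose and none fell (3.19% and 1.2%). The median difference of the 19 was 0.39, 0.36, 0.29, 0.14 and 0.48 at the 5 times in order, against 0.01, 0.01, -0.0018, 0.04 and 0.05 over all probe sets.

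The 1 kininogen measured and the B1 receptor did not pass the test at any time. Of all probe sets, 49.8% passed it at 1 or more times. Kng2, the kininogen, differed from no fracture by -0.18 ± 0.37 at 1 week (log2, SE, limma adjusted p = 0.764), by 0.61 ± 0.37 at 2 weeks (limma adjusted p = 0.274) and by 0.87 ± 0.37 at 4 weeks (limma adjusted p = 0.191). It was called at 2 and at 4 weeks without the older array with no fracture, and at 2 weeks without older rats. Bdkrb1, the B1 receptor, read 469.5, 431.2 and 526.2 at 1 week in young, adult and older rats, against 351.1, 506.0 and 422.8 with no fracture (limma adjusted p = 0.706). Bdkrb2, the B2 receptor, lay between 5.7 and 61.2 and plasma kallikrein, Klkb1, between 16.7 and 52.7, both too low to test.

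Of the 8 peptidases tested that can degrade kinins, 4 rose at 1 or more times, where 27.5% of all probe sets did. Mme, neprilysin, read 224.9, 151.8 and 193.3 at 1 week in young, adult and older rats, against 112.1, 54.8 and 95.4 with no fracture, and every array after fracture was above the array with no fracture of its age. Its difference was 0.85 ± 0.25 at 1 week (log2, SE, limma adjusted p = 0.01996) and 1.23 ± 0.25 at 4 weeks (limma adjusted p = 0.00781). Anpep, aminopeptidase N, rose by 1.00 ± 0.31 at 1 week (limma adjusted p = 0.0267). Ece1, endothelin-converting enzyme, rose at 3 days and 1 week, and Xpnpep1, aminopeptidase P, rose at 1 week.

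Of the 3 inhibitors tested, Serpina3n and Serping1 rose at 1 or more times, where 27.5% of all probe sets did. Serping1, the C1 inhibitor that also blocks plasma kallikrein, read 713.8, 1042.7 and 2349.3 at 6 weeks in young, adult and older rats, against 470.5, 235.4 and 390.8 with no fracture. Its difference was 0.72 at 3 days, which did not pass the test, and 1.78 ± 0.32 at 6 weeks (log2, SE, limma adjusted p = 0.00763). Serpina3n, a serine protease inhibitor, was 1.18 ± 0.22 higher at 3 days (limma adjusted p = 0.000519). It was also called at 1 and 2 weeks, but not at 4 or 6 weeks.

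Of 6 tested genes acting after kinin receptors, Ptgs2, Ptgs1 and Pla2g4a were called at 1 or more times, where 49.8% of all probe sets were. Nos2, Nos3 and Gnai2 were not called at any time. The 2 cyclooxygenases went opposite ways. Ptgs2, the inducible form, read 1095.5, 1282.3 and 977.5 at 3 days in young, adult and older rats, against 15, 15.8 and 63.3 with no fracture, a difference of at least 11.1-fold (limma adjusted p = 0.000258). At 1 week it read 63.6, 218.3 and 1213.2, highest in older rats, and did not pass the test (limma adjusted p = 0.0559). Ptgs1, the constitutive form, read 396.7, 469.7 and 200.2 at 1 week, against 766.8, 692.3 and 1493.3 with no fracture, and fell by 1.47 on the log2 scale (SE 0.34, limma adjusted p = 0.00537). Pla2g4a, which frees arachidonic acid, rose at 3 days by 1.23 ± 0.28 (limma adjusted p = 0.00260).

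The counts of these genes rested on few arrays. At 1 week the count of 7 was 3 without the young 1-week array, 2 without the adult 1-week array, 4 without the adult array with no fracture and 3 without the older array with no fracture. It was 4 without the replicate block, with Mme, Ece1 and Serping1 lost, and 0 with only the 6 arrays compared. At 2 weeks the count of 5 was 3 without the young or the adult 2-week array or the adult array with no fracture. At 4 weeks the 2 became 4 without the older array with no fracture and 0 without the older 4-week array, and at 6 weeks the 1 became 2 and 0 without the older arrays of no fracture and 6 weeks.

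**Figure D5:**
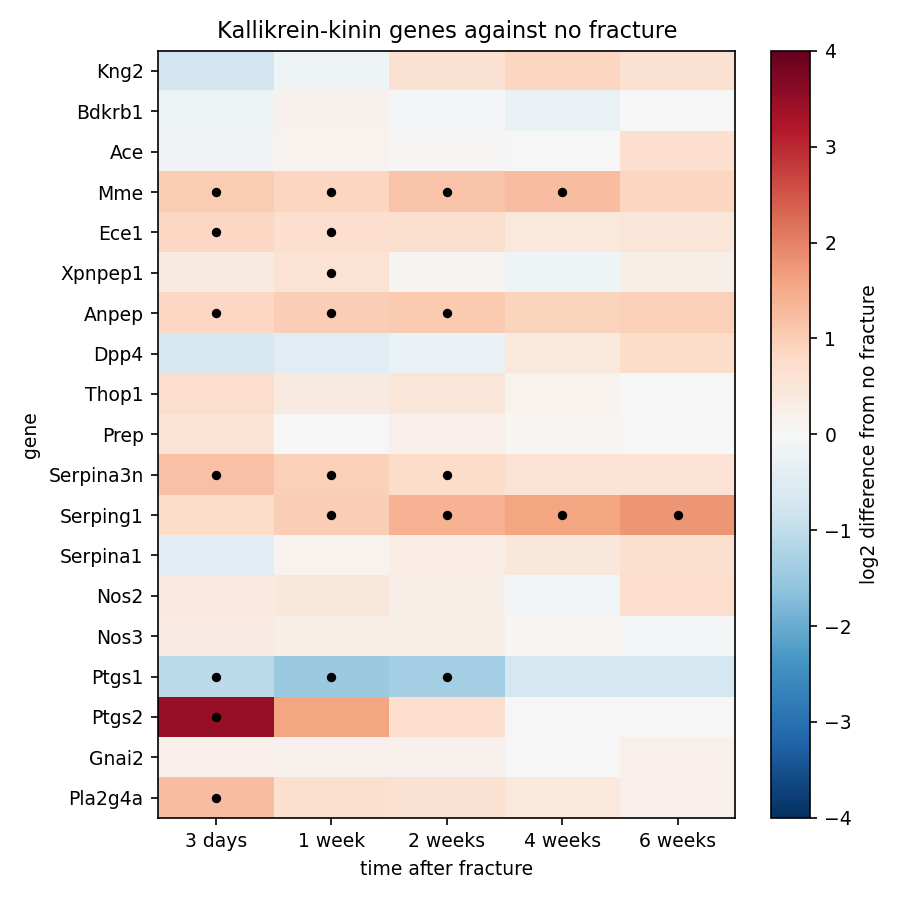
Log2 difference from no fracture (colour, 3 arrays against 3) of the 19 tested kallikrein-kinin genes at the 5 times after fracture; dots mark adjusted p below 0.05 by limma. Ptgs2 stands out at 3 days, Serping1 is called at 4 of 5 times, and Kng2 and Bdkrb1 carry no dot.

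The arrays were alike in scale, with trimmed means of 500.6 to 500.9 and 37.2% to 43.3% of probe sets below 100. The young 6-week array had a Gapdh 5′ to 3′ signal ratio of 0.257, against 0.650 to 0.913 on the others, a sign of RNA quality. It is the lowest of the young arrays for M19647_i_at, and its part in that value was not tested.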

How the data were processed

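The deposited values were signal intensities of Affymetrix rat arrays of the U34 set, made by the authors with Affymetrix Microarray Suite, which scaled each array to a common average. Detection calls were not used here. Genes were named from the platform annotation, and symbols and older names were read from the RefSeq table. The members and gene lists were chosen with earlier results of these data known.

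Signals below 100 were set to 100 and log2 was taken. Probe sets with a signal of at least 200 on at least 3 arrays were kept (4669 of 8799). Differences from no fracture were fitted on all 18 arrays with time and age terms, where the age term is the replicate block since replicate numbers stand for the ages, and differences between ages on the 15 arrays after fracture with a time term, using limma 3.58.1 in R 4.3.3 with a trended variance and Benjamini-Hochberg adjustment over all 4669 probe sets, threshold 0.05. The p-values measure the spread between pooled arrays of different ages or times, not between repeats of 1 condition. The number of arrays limits the precision. The fits were tested on simulated data.

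The text names both Klk1 probe sets, other glandular kallikreins, listed pathway genes (in full where called), the 10 genes most like and 5 most opposite to M19647_i_at (1 probe set per gene, kallikreins left out) and marker lists. Sequences were aligned with Biopython 1.88. Alternatives changed the floor, the filter, the normalization, the fit and the arrays kept.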

Additional observations from a re-analysis of the deposited data

How the results depend on the processing

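The 1-week, 2-week and 4-week differences of Klk1 from no fracture kept their direction under every alternative run, between 4.41 and 6.06 at 1 week for M19647_i_at. Without the replicate block, that is with the age term left out, the 1-week difference was 5.07 with an SE of 0.80, the pathway count over all times was 9 and that at 1 week was 4 in place of 7. The 3-day difference was 2.10 with a floor of 20 and 1.01 with a floor of 200, and between 0.85 and 2.49 when 1 array was left out. The 6-week difference was between -0.26 and 1.18 when 1 array was left out and -0.29 without adult rats. For older against young rats, leaving out 1 array gave -0.13 to 1.14, with the negative value without the young 2-week array. For adult against young rats it gave 0.72 to 2.00. For older against adult rats, the fit on these 2 ages alone gave -0.85 with an adjusted p of 0.0448, and adjusted p ran between 0.0448 and 0.824 over 26 alternatives. The late minus early difference was between -3.23 and -1.10 when 1 array was left out. The pathway count was 4 without adult rats, 5 with only the 6 arrays of each comparison (0 at 1 week) and 4 with the ordinary two-sample test. Of the 10 genes most like Klk1, 3 were shared with the 10 by Spearman correlation and 6 with a floor of 200. The cause of these shifts was not tested. With 1 array per age and time, a value of a single condition has no replicate.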
